A study of Mus musculus with 6 samples.

Results

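The genes described here are 10 members of the amino acid response that the transcription factor ATF4 drives, among them the hormone gene Fgf21. They were Fgf21, Cth, Chac1, Asns, Atf3, Atf5, Ddit3, Ddit4, Cebpg and Mthfd2. They were chosen by symbol from the gene names that GEO's platform annotation gives to the probes. They were picked with the values of the present comparison known, for their shared direction, so their values below are a description and their direction is not a finding. Each of the 10 was represented by 1 probe, among 8841 genes with a probe of a single symbol. The samples were 2T3 cells, a mouse pre-osteoblast line, cultured in OptiCell cassettes. In 3 samples the cells were exposed to simulated microgravity on a Random Positioning Machine, which keeps turning the culture so that the pull of gravity has no fixed direction. In the other 3 the cells were static controls in the same kind of cassette. Exposure time, passage, medium and the number of separate cultures were not given in the sources used here, and all samples came from 1 cell line.

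ATF4 is a transcription factor whose translation increases when the initiation factor eIF2 is phosphorylated. Several kinases phosphorylate eIF2: GCN2 (Eif2ak4) when amino acids are scarce, PERK (Eif2ak3) when the endoplasmic reticulum holds unfolded protein, and HRI (Eif2ak1) and PKR (Eif2ak2) under other stresses. ATF4 then pairs with C/EBP proteins at a composite DNA element and raises the transcription of genes for amino acid synthesis, amino acid import and feedback control. In osteoblasts ATF4 is known for its part in the amino acid supply for collagen synthesis.

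The promoter windows searched held that composite element in some members and not in others. Elements outside the windows were not looked for. The windows held 250 bases before and 50 bases from an annotated start of a gene, taken from RefSeq sequence of the mouse build GRCm38.p6. Of the 10 members, 9 had one (Atf5 had more than 1), Cth being the other. For Mthfd2 the window (chr6:83317555-83317854, minus strand) lay inside the annotated span of the gene (chr6:83305704-83326011). The sequence before the outer end of that span was not searched. The element was searched on both strands as TGATGNAA, with its narrower form TGATGCAA counted separately and contained in it. Of the 9 members, 4 held TGATGNAA, against 4.51% of all 27025 genes with a window of this length. The narrower form was in 3 members, Fgf21, Chac1 and Atf3, against 1.03% of these genes. The cyclic AMP response element TGACGTCA was in 0 of the 9, against 2.03% of these genes. A match is a description of the letters and not evidence that a factor binds there. The members were listed as genes of a response that ATF4 drives, so a share above that of all genes is not a finding. The stretches before the start of these 4 genes follow, read on the gene's own strand, with the match in capitals. Fgf21, Chac1 and Atf3 carry the element on the opposite strand, so it reads as TTGCATCA here.
Fgf21 (chr7:45615491-45615640, minus strand): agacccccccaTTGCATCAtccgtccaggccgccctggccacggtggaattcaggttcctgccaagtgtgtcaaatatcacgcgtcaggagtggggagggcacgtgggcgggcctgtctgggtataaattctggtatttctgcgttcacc
Chac1 (chr2:119351039-119351241, plus strand): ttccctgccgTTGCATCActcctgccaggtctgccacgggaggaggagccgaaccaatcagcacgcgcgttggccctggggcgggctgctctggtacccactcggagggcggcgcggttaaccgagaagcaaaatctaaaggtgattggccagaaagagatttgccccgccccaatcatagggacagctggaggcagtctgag
Atf3 (chr1:191183334-191183483, minus strand): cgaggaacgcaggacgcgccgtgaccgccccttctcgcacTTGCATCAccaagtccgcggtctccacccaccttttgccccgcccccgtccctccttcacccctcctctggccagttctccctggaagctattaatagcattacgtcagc
Asns (chr6:7693210-7693359, minus strand): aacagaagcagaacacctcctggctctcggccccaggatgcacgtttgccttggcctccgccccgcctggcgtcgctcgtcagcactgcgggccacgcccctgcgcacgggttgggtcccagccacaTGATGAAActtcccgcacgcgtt

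Counted back from the gene start, the match began at base -139 in Fgf21, -193 in Chac1, -110 in Atf3 and -23 in Asns. Fgf21, Chac1 and Atf3 share the same 8 letters, and Asns has TGATGAAA on its own strand. Among 33 measured ATF4 targets outside the members, listed below, 25 had a window and 8 of these held TGATGNAA, each in its narrower form. Examples from 5 of them are shown with up to 20 bases on each side, to set the same letters beside genes whose values differed.
Slc7a11 (chr3:50443652-50443699, minus strand): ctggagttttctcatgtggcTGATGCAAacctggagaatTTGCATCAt
Got1 (chr19:43524680-43524727, minus strand): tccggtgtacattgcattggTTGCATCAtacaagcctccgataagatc
Vldlr (chr19:27216800-27216847, plus strand): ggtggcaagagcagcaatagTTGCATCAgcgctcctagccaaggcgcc
Nupr1 (chr7:126625553-126625600, minus strand): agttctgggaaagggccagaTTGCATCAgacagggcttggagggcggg
Herpud1 (chr8:94386297-94386344, plus strand): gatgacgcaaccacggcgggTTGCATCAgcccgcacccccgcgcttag

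**Figure D1:**
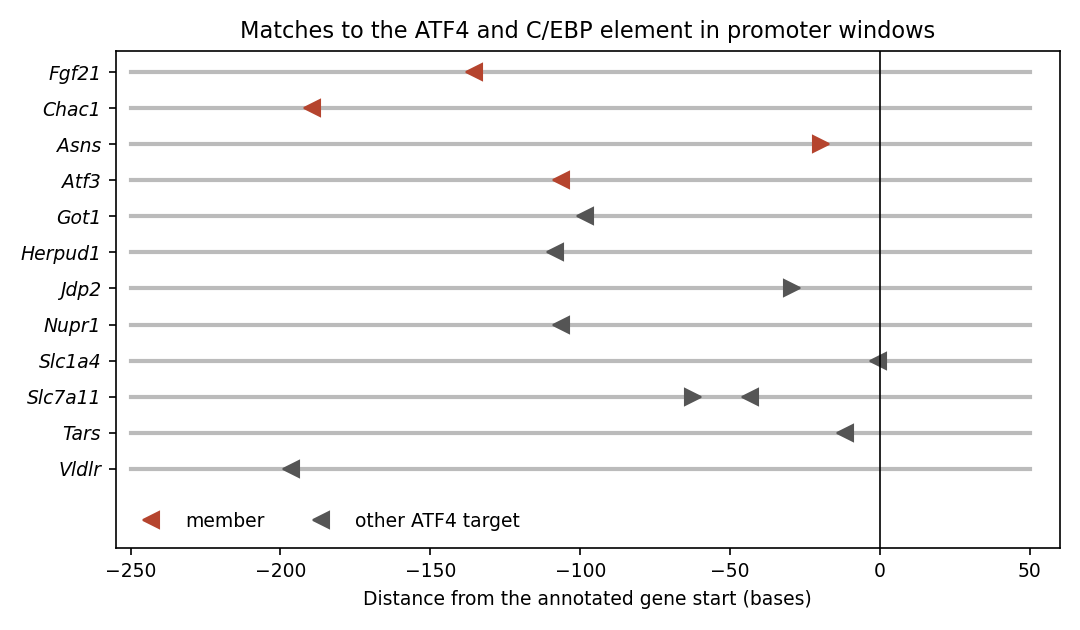
Positions of TGATGNAA matches in promoter windows, in bases from the annotated gene start, for the 4 members and the 8 other ATF4 targets that hold one. Arrowheads point right for a match on the gene's own strand and left for one on the opposite strand. Slc7a11 holds 2 matches, and all matches begin before the start.

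Values are the authors' deposited intensities divided by the median of the same array, so 1 stands for the median probe. Values under 0.1 were set to 0.1 before log2 values were averaged and subtracted, so changes of dim probes are understated. A probe's intensity also depends on its sequence, so values of different genes are not set against each other. The table held 10337 to 10432 values per array. Simulated microgravity 2 and static 2 had the fewest values below 0.1 of the median, 6.44% and 9.16%, against 17.1% to 19.8% on the other arrays. Across probes, r of log2 values was 0.969 to 0.986 for arrays of the same group and 0.963 to 0.988 for arrays of different groups. Groups were compared with limma over 10146 probes, and 28 passed an adjusted p of 0.05 (0.276%), of which 9 were higher in simulated microgravity (0.0887%).

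As a check of the label, 10 osteoblast markers were measured. By limma Pth1r, Alpl and Omd fell and 0 rose, while 17 of all 8588 genes fell. Of the 10, 7 were lower without overlap, as were 8.15% of all genes. The summed level of the 10 was 212 to 273 in simulated microgravity and 395 to 520 in static cells. Bright probes weigh most in such a sum: Sparc alone had 116 to 154 and 173 to 246. Ibsp and Phex were dim on every array, at 0.154 to 0.289 and 0.149 to 0.239. The bone cell gene Dmp1, counted among the 7, had 0.0438 to 0.0659 in simulated microgravity, under the floor of 0.1 described above. It was below 0.2 of the median on every array. So were 4 of 5 skeletal muscle markers, Myod1 and Myog among them, whose list summed to 0.751 to 0.975 in simulated microgravity and 0.793 to 0.922 in static cells. Of 5 endothelial and epithelial markers, 4 were below that bar, Pecam1, Cdh5, Epcam and Cdh1, and the sums were 0.421 to 0.792 and 0.495 to 0.581. Of 4 adipocyte markers, Adipoq and Cd36 were below that bar, while Fabp4 and Lpl were not, and the summed level was 33.5 to 39.0 against 39.7 to 46.9 in static cells. Lpl, lipoprotein lipase, was lower without overlap (log2 change -0.78, SE 0.15, limma adjusted p = 0.109). Of 3 macrophage and blood markers, the pan-leukocyte gene Ptprc was below 0.2 of the median on every array. Cd14 and Lyz2 were above the median on every array, and the sum was 9.87 to 16.4 against 13.8 to 17.5 in static cells. The 4 chondrocyte markers summed to 1.31 to 1.95 in simulated microgravity and 1.44 to 2.77 in static cells. The part of these levels in the results below was not tested, and in bulk RNA fewer cells of a type and less RNA per cell cannot be told apart.

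All 10 members had higher mean log2 values in simulated microgravity, a direction they were picked for and that 56.6% of all 8588 genes shared. Their median log2 change was 0.46, against 0.05 for all genes. The groups did not overlap in 6 of the 10, while 8.71% of genes were higher without overlap. Of the 10, 2 passed the adjusted threshold (the background for higher probes is the 0.0887% above) and 5 had an unadjusted p under 0.05 (5.79% of genes were higher at that level). Since the comparison chose the members, nothing is read from these counts.

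**Figure D2:**
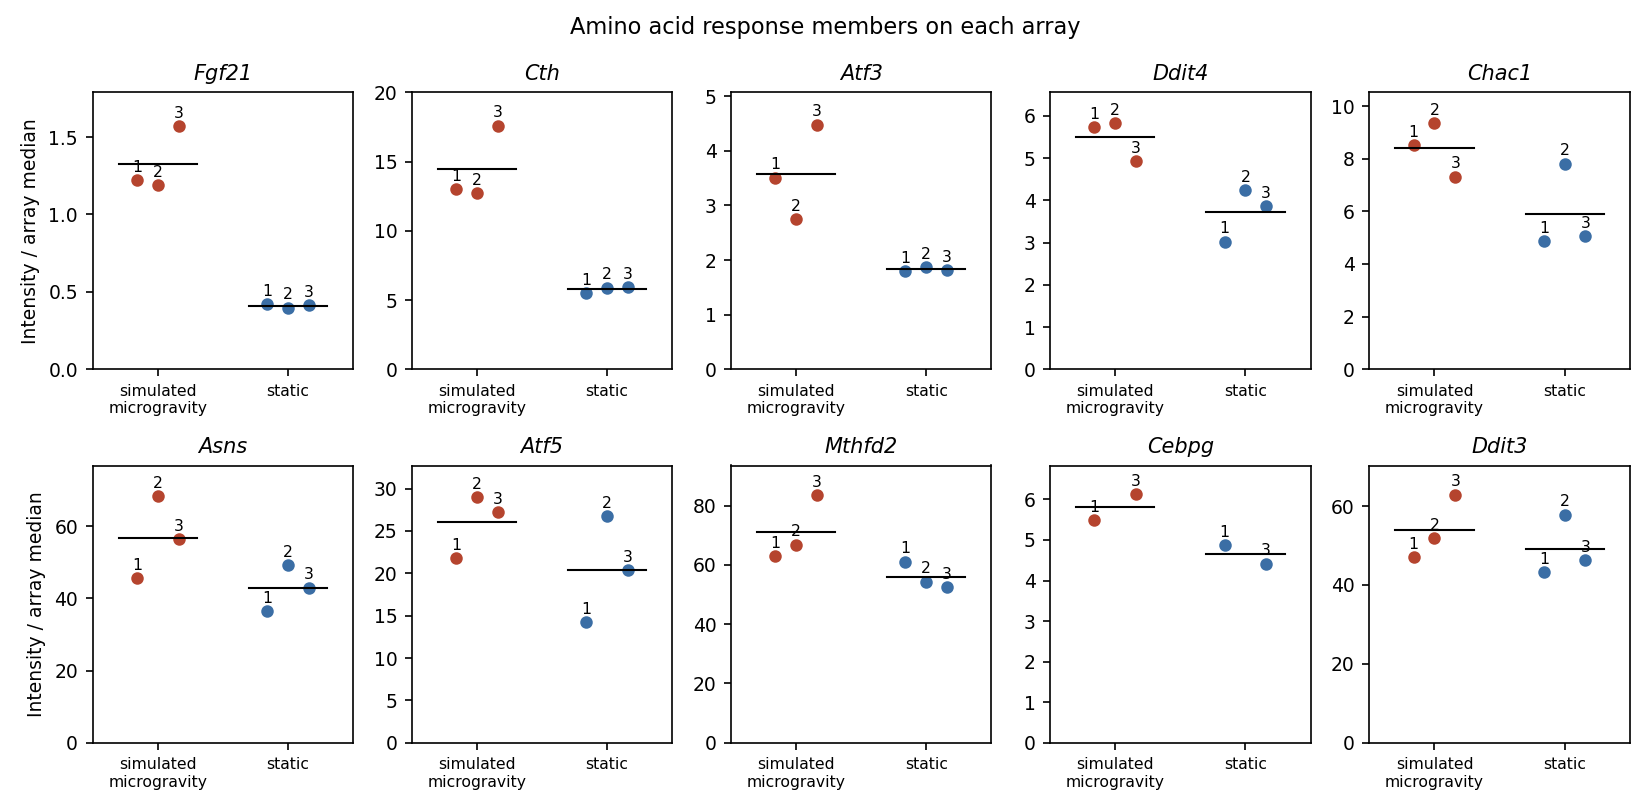
Intensity relative to the array median (linear axes from 0, 1 scale per gene) for the 10 members, with simulated microgravity in red and static in blue. Points are arrays, labelled by replicate number, and lines are group means. Fgf21, Cth and Atf3 have tightly grouped static arrays, while Chac1, Asns, Atf5 and Ddit3 overlap between groups.

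Fgf21 encodes a secreted hormone that acts on metabolism through FGF receptors with the co-receptor beta-Klotho, and it is made in liver, fat and stressed muscle. It had 1.22, 1.19 and 1.57 times the array median in simulated microgravity, against 0.422, 0.399 and 0.412 in static cells. Every static value lay below the array median and every simulated microgravity value above it, and the static arrays lay close together. The means were 1.33 ± 0.208 and 0.411 ± 0.0118 (SD, n = 3 each), a 3.20-fold difference (log2 change 1.68, SE 0.21, limma adjusted p = 0.0464). This was the 5th largest increase among the 8588 genes.

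On the receptor side of FGF21 signalling no gene passed the threshold. Fgfr1, the main receptor, had 2.14 ± 0.548 in simulated microgravity and 2.30 ± 0.774 in static cells (log2 change -0.08, 95% interval -0.87 to 0.71). The beta-Klotho gene Klb was dim in both groups, at 0.146 to 0.245 in simulated microgravity and 0.150 to 0.181 in static cells. Both genes were named after their values were seen. Of 9 measured genes in the list of FGF21 receptors and regulators, 0 rose and 0 fell by limma. At an unadjusted p under 0.05 there were 0 higher and 1 lower (5.69% of genes were lower at that level), and the list's median log2 change was -0.08. The gene lower at that level was Fgfr3, a receptor of skeletal growth, at 0.399 ± 0.0997 and 0.750 ± 0.262 (limma adjusted p = 0.398). Its groups did not overlap. Of all genes, 8.15% were lower without overlap. Mlxipl, a carbohydrate-responsive transcription factor, and Ppargc1a, a coactivator of mitochondrial genes, had log2 changes of 0.36 (SE 0.36) and -0.15 (SE 0.15). Ppargc1a was below 0.2 of the median on all arrays.

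Cth encodes cystathionine gamma-lyase, the last enzyme of the route that turns methionine sulphur into cysteine. It had 13.0, 12.7 and 17.6 in simulated microgravity, against 5.52, 5.90 and 5.95 in static cells. The groups lay far apart, with array 3 highest in each. The means were 14.4 ± 2.74 and 5.79 ± 0.233 (log2 change 1.30, SE 0.17, 2.46-fold, limma adjusted p = 0.0464), which ranked 34th among all increases. Cbs, the enzyme one step before Cth, belongs to the list of synthesis genes and is named here although its values were known. It had 0.386 ± 0.0491 in simulated microgravity and 0.349 ± 0.0933 in static cells, with overlapping groups.

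The calls of Fgf21 and Cth rested on all 6 arrays. With any 1 array left out neither passed, and limma adjusted p-values were then 0.122 to 0.258 for Fgf21 and 0.122 to 0.251 for Cth, while their log2 changes stayed at 1.55 to 1.75 and 1.15 to 1.38. No probe of any other gene passed in those fits either, so the loss of the call is not particular to these genes.

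The other enzymes among the members had smaller differences. Chac1, which breaks down glutathione in the cytosol, had 8.50, 9.35 and 7.31 in simulated microgravity, against 4.86, 7.81 and 5.06 in static cells. Static 2 lay above simulated microgravity 3, so the groups overlapped (log2 change 0.53, SE 0.22). Asns, asparagine synthetase, had 45.5, 68.2 and 56.4 in simulated microgravity, against 36.5, 49.2 and 42.9 in static cells. Here static 2 exceeded simulated microgravity 1, and the 95% interval of the log2 change of 0.40 ran from -0.10 to 0.89. Mthfd2, a mitochondrial enzyme of one-carbon metabolism, had 63.0, 66.9 and 83.5 in simulated microgravity, against 61.1, 54.4 and 52.4 in static cells. Its groups did not overlap, but static 1 came close to simulated microgravity 1 (log2 change 0.34, SE 0.17).

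Atf3, a repressor and activator of the ATF family that stress induces quickly, had the largest change of the members that encode transcription factors. It had 3.51, 2.75 and 4.48 in simulated microgravity, against 1.80, 1.87 and 1.81 in static cells. The static arrays were nearly equal and the exposed arrays spread widely above them. The log2 change was 0.94 (SE 0.21, 1.92-fold), and it ranked 99th among all increases.

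Atf5, whose mRNA is translated under the same control as ATF4's, had 21.8, 29.0 and 27.2 in simulated microgravity, against 14.2, 26.7 and 20.4 in static cells. Static 2 lay above simulated microgravity 1, and the spread within static cells was wider than the difference of the means (log2 change 0.38, SE 0.25). Ddit3, which encodes the pro-apoptotic factor CHOP, had 47.0, 51.9 and 62.9 in simulated microgravity, against 43.2, 57.8 and 46.3 in static cells. Only simulated microgravity 3 exceeded all static arrays, and the log2 change of 0.14 had a 95% interval of -0.31 to 0.59. Cebpg, a C/EBP protein that pairs with ATF4, had no value on static 2 or simulated microgravity 2. It had 5.49 and 6.13 in simulated microgravity, against 4.88 and 4.42 in static cells (log2 change 0.32, SE 0.19, n = 2 each).

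Ddit4, also known as REDD1, inhibits the growth kinase complex mTORC1. It had 5.73, 5.83 and 4.93 in simulated microgravity, against 3.02, 4.25 and 3.87 in static cells. The groups did not overlap (log2 change 0.58, SE 0.18, 1.49-fold, limma adjusted p = 0.284).

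**Figure D3:**
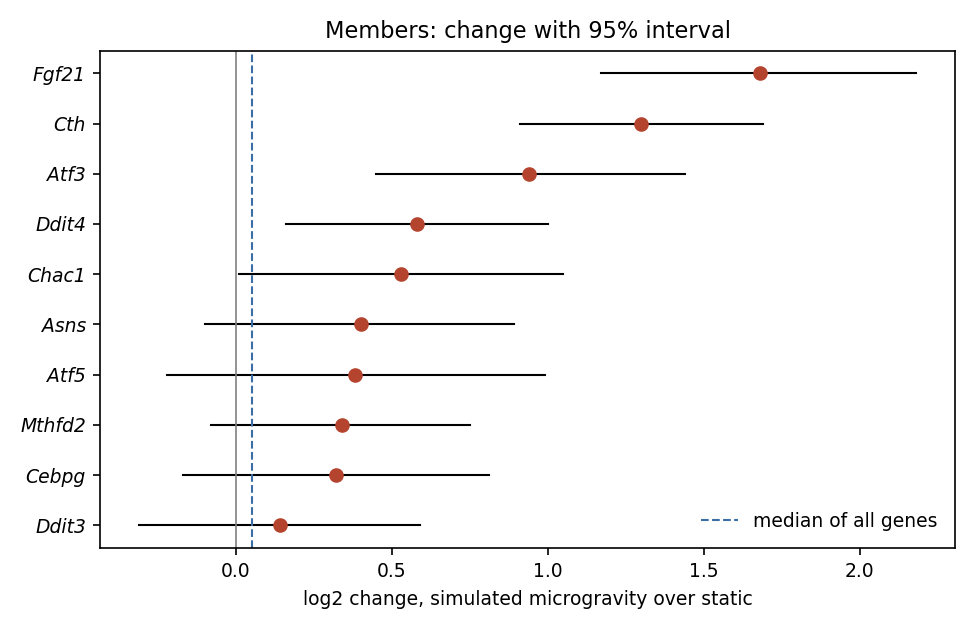
Log2 change of each member, simulated microgravity over static, as points with 95% intervals from limma. The dashed line is the median of all genes, 0.05. Intervals of Asns, Atf5, Mthfd2, Cebpg and Ddit3 include 0.

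The members varied among arrays in more than 1 way. Fgf21, Cth, Atf3, Mthfd2, Cebpg and Ddit3 were highest on simulated microgravity 3 within their group, and the remaining 4 on simulated microgravity 2. Static 1 was the lowest static array for 7 members and static 2 the highest for 6. With static 2 left out, all 10 were higher without overlap, against 15.8% of genes, and with static 1 left out 5 of 9 were, against 12.8%. Without static 3 the count was 5 of 9 (11.6% of genes). It was 7 of 9 without simulated microgravity 1 (15.4%), 6 of 10 without simulated microgravity 2 (12.7%) and 6 of 9 without simulated microgravity 3 (13.9%). Leaving out both static 2 and simulated microgravity 2 gave 10 of 10, against 20.3% of genes with 2 arrays a group. In a gene still measured, leaving out an array can add a separation but not remove one. The median log2 change of the members was 0.64 without static 2 and 0.41 without static 1.

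Atf4 itself had 163, 163 and 226 in simulated microgravity, against 182, 174 and 145 in static cells. The groups overlapped, and the log2 change was 0.13 (SE 0.22, 95% interval -0.40 to 0.65). ATF4 is controlled mainly at translation, which arrays do not measure. Of its upstream kinases, Eif2ak3 had 2.45, 2.20 and 2.58 in simulated microgravity, against 3.65, 2.70 and 2.77 in static cells. It was lower without overlap, as were 8.15% of all genes. Its interval included 0 (log2 change -0.32, 95% interval -0.75 to 0.10). Eif2ak4, Eif2ak2 and Eif2ak1 had log2 changes of 0.14 (SE 0.21), -0.14 (SE 0.54) and -0.01 (SE 0.24). Eif2s2, the beta subunit of eIF2, had 0.26 (SE 0.19) and was higher without overlap, as were 8.71% of all genes. Of 9 measured eIF2 kinases and regulators, a list that also holds Atf4, 0 passed by limma in either direction and 0 had an unadjusted p under 0.05, with a median log2 change of 0.10.

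Other known ATF4 targets were taken from 4 lists, drawn up with earlier results of these data known. Of 52 listed genes 33 were measured, and 32 of the 33 had log2 changes above 0 (29 with quantile and 30 with cyclic loess normalization), as did 56.6% of all genes. The 32 include Cebpb, Slc38a2 and Jdp2, which lay close to 0 (0.00, 0.03 and 0.04 when rounded). None of the 33 passed the adjusted threshold (0 by limma, smallest adjusted p = 0.0915). At an unadjusted p under 0.05, 11 were higher and 0 lower, against 5.79% and 5.69% of all genes. Groups did not overlap in 11 of the 33, all higher, against 8.71% of all genes. That count was 18 without simulated microgravity 3 (13.9% of all genes), 17 without static 2 (15.8%) and 15 without simulated microgravity 2 (12.7%). It was 13 without static 3 (11.6%) and 11 without static 1 (12.8%) or simulated microgravity 1 (15.4%). Without both simulated microgravity 2 and static 2 it was 21 (20.3%). Leaving out an array can add a separation but not remove one, so these counts could not fall. The median log2 change was 0.34, against 0.05 for all genes, and it was 0.24 without static 1 and 0.50 without static 2. The count of 11 at an unadjusted p under 0.05 was 9 to 12 when any 1 array was left out.

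Of the listed enzymes of amino acid and one-carbon synthesis, Phgdh, Got1 and Shmt2 had the smallest p. Phgdh, the first enzyme of serine synthesis, had 18.7, 18.1 and 16.6 in simulated microgravity, against 9.28, 10.4 and 12.5 in static cells. The groups were well separated (log2 change 0.74, SE 0.16, limma adjusted p = 0.132). Shmt2, which turns serine into glycine in mitochondria, had 42.9, 35.1 and 42.2 in simulated microgravity, against 19.3, 26.9 and 27.6 in static cells (log2 change 0.72, SE 0.19). Got1, the cytosolic aspartate aminotransferase, had 10.3, 10.4 and 10.3 in simulated microgravity, against 5.80, 7.41 and 6.65 in static cells. Its exposed arrays were almost equal and all lay above the static ones (log2 change 0.65, SE 0.14). Of the 6 genes measured in this list of 13, 0 passed by limma, 3 had an unadjusted p under 0.05, all higher (5.79% of all genes were), and the median log2 change was 0.49.

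Amino acid transporters had a median log2 change of 0.52 over 10 measured genes. Of these 0 passed by limma, and 3 were higher and 0 lower at an unadjusted p under 0.05, against 5.79% and 5.69% of all genes. Slc1a5, a glutamine carrier, had 2.94, 2.18 and 2.24 in simulated microgravity, against 1.02, 1.41 and 1.47 in static cells (log2 change 0.92, SE 0.23). Slc7a11, the cystine importer that feeds glutathione synthesis, had 2.25, 2.37 and 2.80 in simulated microgravity, against 1.26, 1.56 and 1.64 in static cells (log2 change 0.74, SE 0.19). Both were separated between groups. Slc7a5, the light chain of the leucine carrier, had 26.7, 31.0 and 19.9 in simulated microgravity, against 8.58, 20.6 and 16.0 in static cells, with static 2 above simulated microgravity 3. Slc43a1, named after its values were seen, was the 1 gene of the 33 with a log2 change below 0 in the reported scaling (-0.21, SE 0.26).

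Of 14 genes of cytosolic tRNA synthetases and tRNA export, 7 were measured. All 7 had log2 changes above 0, against 56.6% of all genes, with a median of 0.26, against 0.05. By limma 0 passed, and 1 was higher at an unadjusted p under 0.05, as were 5.79% of all genes. That gene was Wars, the tryptophan enzyme, which interferon also induces. It had 4.39, 4.70 and 5.01 in simulated microgravity, against 2.00, 2.92 and 1.87 in static cells, without overlap (log2 change 1.08, SE 0.20, limma adjusted p = 0.103). Nars and Vars, the asparagine and valine enzymes, had log2 changes of 0.37 (SE 0.23) and 0.58 (SE 0.41).

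Stress and feedback targets of ATF4 held the gene with the smallest adjusted p of the 33. Ppp1r15a (GADD34), which directs the phosphatase that removes phosphate from eIF2, had 6.44, 7.76 and 8.84 in simulated microgravity, against 3.46, 4.10 and 3.94 in static cells. All exposed values lay well above the static ones (log2 change 0.99, SE 0.17, limma adjusted p = 0.0915). Gadd45a, a growth arrest gene that p53 also induces, had 55.0, 43.1 and 55.8 in simulated microgravity, against 21.2, 30.2 and 12.5 in static cells (log2 change 1.35, SE 0.32). Vegfa, the angiogenic factor, had 8.27, 8.41 and 7.00 in simulated microgravity, against 3.67, 5.36 and 5.60 in static cells (log2 change 0.71, SE 0.20). Of 10 measured genes in this list 0 passed by limma and 4 had an unadjusted p under 0.05, all higher (5.79% of all genes were), with a median log2 change of 0.28. Trib3, Sesn2 and Gdf15 were not analysed here.

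**Figure D4:**
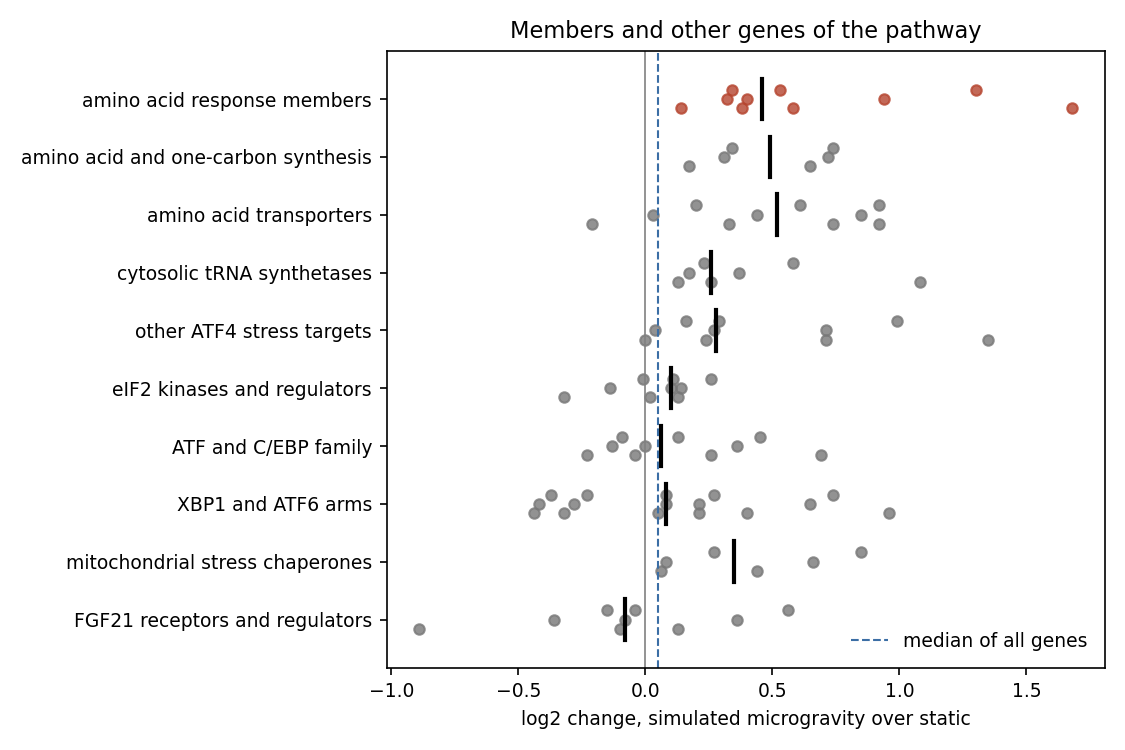
Log2 change, simulated microgravity over static, of each measured gene, by list, with the members in red. Bars are list medians and the dashed line is the median of all genes, 0.05. Medians of the 4 lists of other ATF4 targets lie between 0.26 and 0.52, and those of the eIF2 and ATF lists at 0.10 and 0.06. The median of the mitochondrial stress chaperones, at 0.35, lies within the range of the target lists. Those of the XBP1 and ATF6 list and the FGF21 list are 0.08 and -0.08.

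Among targets with the composite element, values differed widely. Vldlr, Nupr1 and Herpud1 are named for their sequence, with their values known. Got1, Slc7a11 and Vldlr had log2 changes of 0.65, 0.74 and 0.71, while Nupr1 and Herpud1, which hold the same 8 letters, had 0.27 (SE 0.16) and 0.16 (SE 0.13). The 8 other targets with a match had a median log2 change of 0.30 and the 17 without one in the window 0.31. Among members, the medians were 0.73 for the 4 with a match and 0.34 for the 5 without one in the window. Mthfd2, whose window lay inside the gene, was among the 5. Cth, with a log2 change of 1.30, had no window and is in neither group. The members were picked on this comparison, so no test was made.

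Of 16 measured genes of the XBP1 and ATF6 arms of the unfolded protein response, 10 had log2 changes above 0 and 6 below, a share near the 56.6% of all genes above 0. By limma 0 passed, while 4 were higher and 1 lower at an unadjusted p under 0.05, against 5.79% and 5.69% of all genes. The median log2 change was 0.08, against 0.05 for all genes. Hspa5, the chaperone BiP, had 72.8, 77.1 and 54.2 in simulated microgravity, against 29.8, 45.7 and 48.2 in static cells (log2 change 0.74, SE 0.25, limma adjusted p = 0.322). Ern1, the sensor IRE1, and Dnajb9, a co-chaperone of BiP, had log2 changes of 0.65 (SE 0.23) and 0.40 (SE 0.16). The gene lower at that level was Calr, a calcium-binding chaperone, which was also picked for naming on its values. It had 7.11 ± 1.10 in simulated microgravity and 9.47 ± 1.24 in static cells (log2 change -0.42, SE 0.17).

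Mitochondrial stress chaperones and proteases had log2 changes above 0 in 6 of 6 measured genes, against 56.6% of all genes, and a median of 0.35, against 0.05. By limma 0 passed, and 2 were higher at an unadjusted p under 0.05, as were 5.79% of all genes. Hspd1, the chaperonin HSP60, had 35.0, 38.8 and 24.5 in simulated microgravity, against 13.2, 20.8 and 20.7 in static cells (log2 change 0.85, SE 0.26). Hspa9, mitochondrial HSP70, and Trap1, a mitochondrial HSP90, had log2 changes of 0.66 (SE 0.27) and 0.44 (SE 0.22).

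Among 10 measured ATF and C/EBP genes outside the members, which include Atf4 and Cebpb, 0 passed by limma. The median log2 change was 0.06 (-0.02 with quantile and -0.01 with cyclic loess normalization), and 1 gene was higher at an unadjusted p under 0.05, as were 5.79% of all genes. It was Atf1, a factor of the CREB family, with 7.57, 9.74 and 6.62 in simulated microgravity, against 4.86, 3.72 and 6.49 in static cells (log2 change 0.69, SE 0.25, limma adjusted p = 0.374). Crem and Cebpa had log2 changes of 0.26 (SE 0.15) and 0.36 (SE 0.32).

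The genes whose log2 values ran most like those of Fgf21 over the 6 arrays were Cct2, Ifrd2, Fosl1, Car6 and Ppid, among 4348 genes above the median of all probes. Their Pearson r with Fgf21 was 0.999, 0.999, 0.998, 0.992 and 0.989. The samples form 2 groups that differ in Fgf21, and all 5 genes share that difference, so these values are given as a description. Car6 had 25.7, 24.7 and 42.9 in simulated microgravity, against 5.86, 4.44 and 6.44 in static cells, with array 3 highest in each group.

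**Figure D5:**
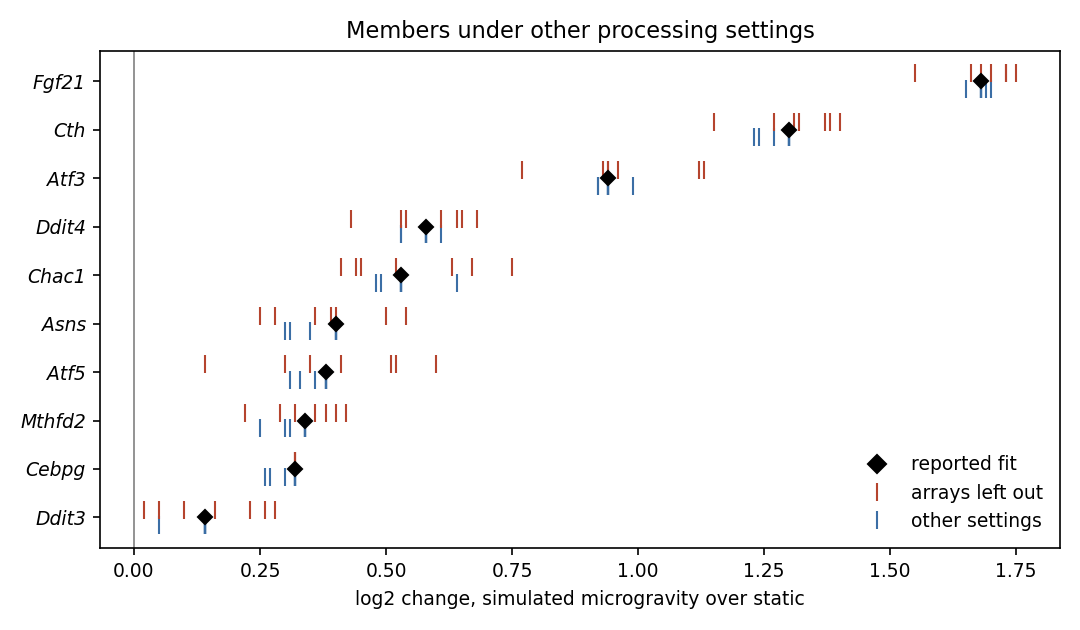
Log2 change of each member, simulated microgravity over static, in the reported fit (diamonds), with arrays left out (red ticks) and under the other settings (blue ticks). All ticks lie above 0, and those of Fgf21 stay between 1.55 and 1.75.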

How the data were processed

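RNA of 6 samples was measured on expression arrays, 1 per sample. The authors deposited 1 linear intensity per probe and array for 10500 probes. Their scanner, background correction and scaling were not given in the sources used here, but deposited array medians were 0.908 to 0.927, so the table was taken as scaled. Intensities were divided by the array median, floored at 0.1 and converted to log2. Probes at the floor throughout, or lacking 2 values in either group, were dropped (354), which left 10146. Groups were compared with limma 3.58.1 in R 4.3.3 (lmFit, eBayes with an intensity trend, 2-sided, Benjamini-Hochberg over all probes, threshold 0.05), a fit also tested on simulated data. Whether samples of a group were separate cultures is not stated, so p-values cover the spread between these samples alone, which may be technical, and 3 arrays a group limit precision. Symbols came from GEO's platform annotation (8983 probes with 1 symbol, 1 with several), and the brightest probe stood for each of 8588 genes. Named genes were all members, Atf4, the eIF2 kinases, any called gene and up to 3 with the smallest p in each list, and the 5 most like Fgf21. Members, lists and tests were chosen with earlier results of these data known. Alternatives changed the normalization, floor, filter on dim probes, variance model, array weights, arrays used and a replicate block.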

Additional observations from a re-analysis of the deposited data

How the results depend on the processing

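All 10 members kept a log2 change above 0 in each alternative that measured them, 13 to 17 per gene. The lowest was 0.02 for Ddit3. Cebpg was not measured when static 1 or 3 or simulated microgravity 1 or 3 was left out. Fgf21 was among the probes removed when the dimmest 50% were dropped. Fgf21 passed the threshold in 8 of 16 alternatives and Cth in 8 of 17, with limma adjusted p-values of 0.0165 to 0.270 and 0.0184 to 0.255. Cth did not pass with eBayes without the intensity trend (adjusted p = 0.0604). Each member had a single probe, so the mean of several probes could not differ. The 28 probes called became 49 with quantile and 57 with cyclic loess normalization, 53 when values were floored at 0.05, 59 and 54 when the dimmest 25% and 50% of probes were dropped, and 115 with array weights. They were 0 with any 1 array left out (761 to 968 at an unadjusted p under 0.05), 0 with static 2 and simulated microgravity 2 both left out (848) and 0 with the replicate number as a block (938). Of 81 measured pathway genes outside the members, 0 passed in the reported fit and 1, Wars, with array weights. Replicate numbers were not used as pairs in the reported fit. Deviations from the group means correlated at -0.21, 0.45 and -0.18 for numbers 1, 2 and 3. With 3 arrays a group such deviations depend on each other, so these values cannot show whether the samples were paired. Not every sample correlated best with its own number: simulated microgravity 3 did so with static 1 (0.66) and simulated microgravity 1 with static 3 (0.38). The cause of these differences was not tested. The median log2 change of all genes lay between -0.01 and 0.08 over the alternatives. Signal over background could not be judged, as no detection call was used.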
